A study of Mus musculus with 71 samples.

Results

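The immediate early genes of blood leukocytes were described across 71 mice in 6 groups. The 10 genes, Fos, Fosb, Fosl2, Jun, Junb, Jund, Egr1, Klf6, Dusp1 and Ier2, were chosen by gene symbol. All 10 were among the 55416 genes of the deposited read counts. Of these, 9 were among the 10508 genes that the authors deposited after the variance stabilizing transformation (vst), which puts counts on a scale close to log2, and Fosb was present in the counts only.

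Female Balb/c AnNRj mice, aged 6 weeks at inclusion, received intradermal HOCl on 5 days per week for 6 weeks, a model of systemic sclerosis in which the skin and lung become fibrotic. Control mice (CTRL, n = 11) received PBS. HOCl mice without an antibody (HOCl, n = 12) were set beside HOCl mice given D11 or E07 mAb (n = 12 each), both neutralizing antibodies to galectin-3 injected subcutaneously at 20 mg/kg every 5 days. The last 2 groups of HOCl mice are labelled D06 and BPR21 (n = 12 each), names that the sources used here do not explain and for which they give no dose. Groups were taken from the sample titles, since all 11 control mice also carry the word HOCL in the genotype label. Terminal whole blood was taken after euthanasia and lung lavage into tubes that stabilize RNA, and the time between death and stabilization is not given in the sources used here. Experimental and control groups were bred in separate cages, so cage and group cannot be told apart.

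Immediate early genes are transcribed within minutes of a stimulus, without new protein synthesis, by factors already present in the cell such as serum response factor at CArG boxes and CREB at cAMP response elements. Their products are mostly transcription factors or brakes on kinase signalling, and their transcripts are short-lived. In blood they are known to respond to cytokines, adhesion and the handling of cells, and neutrophils and monocytes express many of them.

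Upstream sequences of 4 members are shown because each holds such an element. Fos, Dusp1 and Jund were the members that differed between E07 and HOCl mice, and Ier2 holds the same element as Dusp1 and Jund but did not pass that test. The sequences were read from GRCm39, the assembly that mm39 names, with the start of the Ensembl canonical transcript from GENCODE vM39, and run 5′ to 3′ on the gene's strand. Capitals mark a CArG box in Fos and the cAMP response element TGACGTCA in the others. The genes themselves lie at chr12:85520658-85524047 (Fos), chr17:26724564-26781102 (Dusp1), chr8:71151599-71153265 (Jund) and chr8:85387960-85389483 (Ier2). For Fos the stretch shown is chr12:85520295-85520424 on the plus strand, and the box begins 303 bases before the transcription start. For Dusp1 it is chr17:26727522-26727649 on the minus strand (element 96 bases before the start), for Jund chr8:71151325-71151452 on the plus strand (214 bases) and for Ier2 chr8:85389484-85389586 on the minus strand (43 bases). The Dusp1 gene model reaches upstream of the canonical start at 26727493, so its stretch lies within that model.
Fos: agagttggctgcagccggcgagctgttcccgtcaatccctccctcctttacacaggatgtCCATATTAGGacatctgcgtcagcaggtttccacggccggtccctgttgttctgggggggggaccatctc
Dusp1: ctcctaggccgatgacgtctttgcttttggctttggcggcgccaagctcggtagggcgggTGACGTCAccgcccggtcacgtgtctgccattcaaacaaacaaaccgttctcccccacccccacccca
Jund: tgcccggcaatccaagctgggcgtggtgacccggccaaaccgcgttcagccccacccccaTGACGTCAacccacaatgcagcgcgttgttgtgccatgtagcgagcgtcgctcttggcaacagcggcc
Ier2: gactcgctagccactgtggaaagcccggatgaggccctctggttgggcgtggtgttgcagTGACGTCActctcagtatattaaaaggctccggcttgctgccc

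In the 500 bases before the start, searched on both strands, TGACGTCA was present in 3 of the 10 members (Jund, Dusp1, Ier2) and in 2.39% of 9965 promoters. A CArG box was present in Fos and Fosb and in 2.68% of those promoters. The AP-1 site TGACTCA was in none of the 10 members and in 6.49% of the promoters. The shorter TGACG, which lies inside the cAMP response element, was in 8 of 10 members and in 33.7% of the promoters. These matches describe letters in this window only.

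Between 11932855 and 15948972 reads were counted per mouse (median 13719277). The vst table holds 70 mice and lacks HOCl mouse 8, so the HOCl group counts 11 mice in tests on vst values. Every blood cell marker that matched 1 gene of the count table was counted in some mouse. Red cell precursor markers summed to between 25093 and 128740 CPM (reads per 1000000 counted), and the general leukocyte markers (Ptprc, Coro1a, Laptm5, Cd52, Cd53) to between 1147 and 5430 CPM. These are bulk samples, so fewer cells of a type and less RNA per cell cannot be told apart.

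Per kilobase of exon, Jund was the highest of the members, with a median over the 71 mice of 108 CPM per kb. Junb (42.3), Ier2 (38.3), Klf6 (26.2) and Dusp1 (22.4 CPM per kb) followed. Fos was lower at 6.51 CPM per kb, as were Fosl2 at 2.11 and Jun at 1.08 CPM per kb. Egr1 was at 0.594 CPM per kb, and Fosb at 0.0481 CPM per kb was close to the limit of what could be counted. Within groups the members differed widely in how much mice varied. The pooled SD on the vst scale was 0.73 for Fos, above that of 99% of the genes in the table, and 0.71 for Dusp1, above 98.9%. It was 0.27 each for Jun, Klf6 and Ier2, near the median of all genes of 0.26. Jun had a median of 46 reads, and the vst scale compresses low genes.

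**Figure D1:**
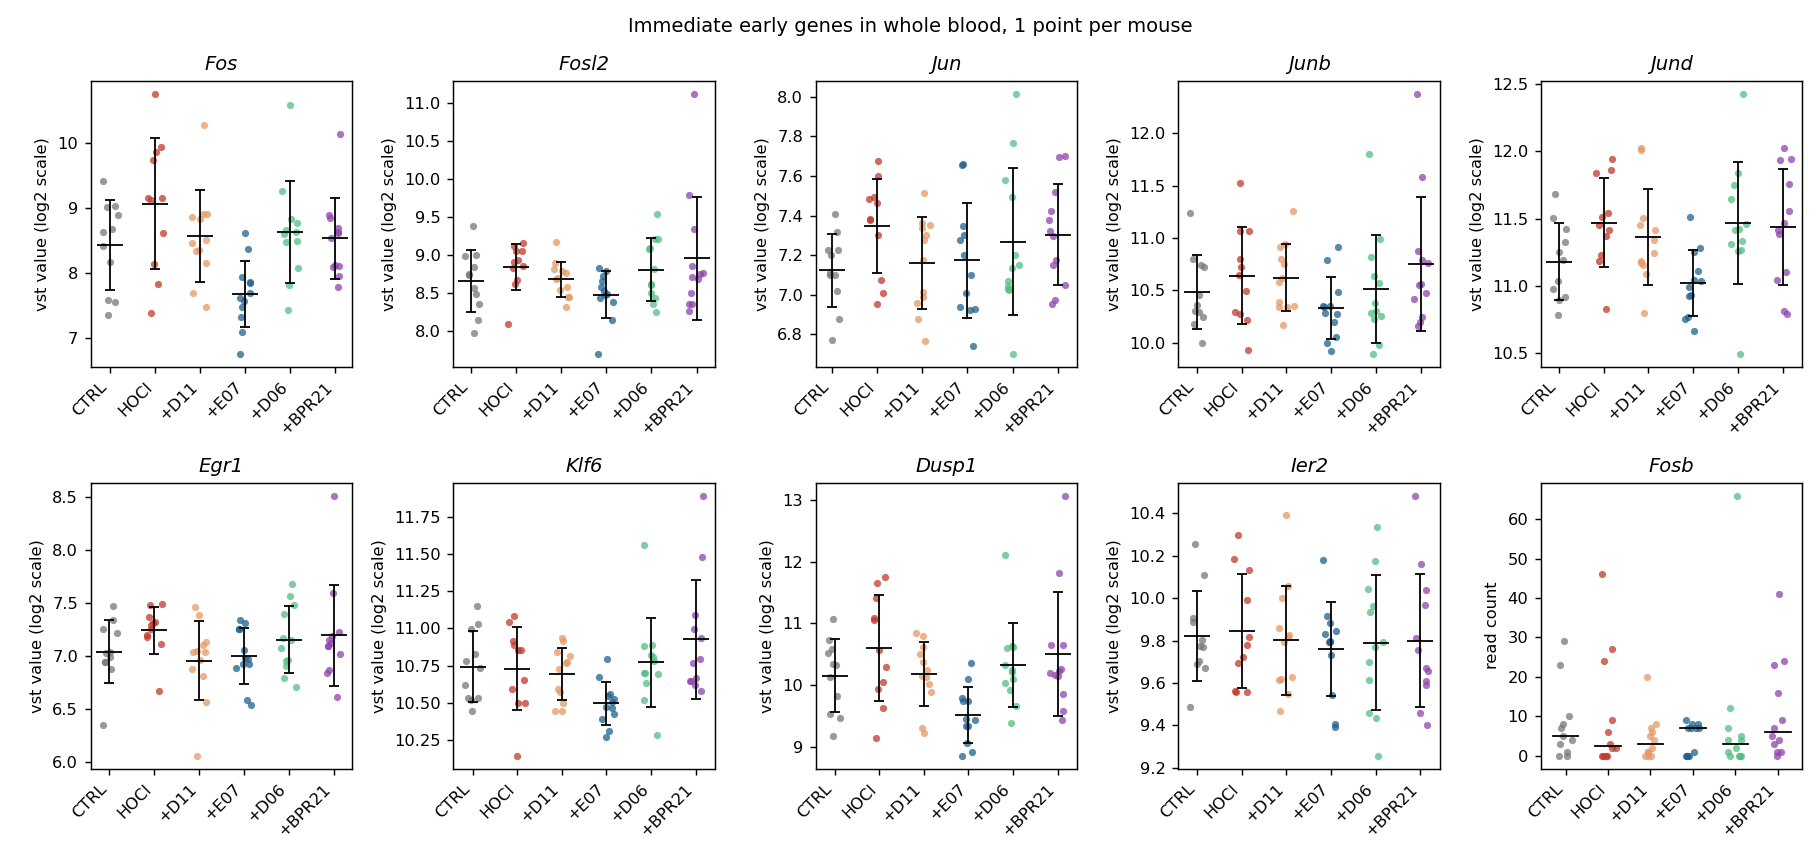
Each point is 1 mouse and each panel 1 gene, with vst values on the y axis (read counts for Fosb) and the 6 groups on the x axis; bars are the mean and SD, and the line for Fosb is the median. Fos and Dusp1 have the widest spread, and their mean is lowest in the E07 group (7.68 and 9.51).

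The first comparison asked whether the HOCl model itself moved these genes. By limma on the vst values, calling a gene where its FDR did not exceed 0.05 and its fold change reached 1.3, 0 of the 9 members were called between HOCl and CTRL mice, beside 4.96% of all genes. At an unadjusted p under 0.05 there were 2 (Jun and Jund) by limma, beside 1885 of all 10508 genes, and 3 by edgeR on counts. The share of all genes at that p by edgeR was not counted, in this or any later comparison. By both thresholds edgeR also called 0, beside 3.72% of the genes it tested. The log2 difference was positive for 8 of 9 members, with a median of 0.20 against -0.02 over all genes, and for 4 of 9 when libraries were scaled to total counts. Fos, the partner of the Jun proteins in the AP-1 dimer, ranged from 7.36 to 9.42 (median 8.63) in CTRL mice and from 7.38 to 10.8 (median 9.15) in HOCl mice. The groups overlapped, with 4 of 11 HOCl mice above the highest CTRL mouse, and the difference of 0.63 ± 0.32 (SE) on the log2 scale had an FDR of 0.309. Dusp1, a phosphatase that switches MAP kinases off, differed by 0.45 ± 0.28 (SE), with an FDR of 0.426.

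On the vst scale Fos, Dusp1 and Jund were lower in E07 than in HOCl mice, and for Jund the sign turned when libraries were scaled to total counts. These 3 of 9 members were called by limma, beside 7.89% of all genes, and edgeR on counts called the same 3, beside 9.83% of the genes it tested. The log2 difference was negative for 9 of 9 members, with a median of -0.31 against 0.02 over all genes, but for 4 of 9 under total-count scaling. An unadjusted p under 0.05 was seen for 7 by limma, beside 2996 of all 10508 genes, and for 5 by edgeR. The same HOCl mice serve the comparisons of the D11, E07, D06 and BPR21 groups, so these comparisons are not independent of each other.

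Fos ranged from 6.76 to 8.61 (median 7.66) in the 12 E07 mice. In the 11 HOCl mice it ranged from 7.38 to 10.8 (median 9.15). All 12 E07 mice lay below the HOCl median, 3 of them below every HOCl mouse, and 8 of 11 HOCl mice lay above every E07 mouse. The difference was -1.38 ± 0.29 (SE) on the vst scale, a 2.61-fold lower value, with an FDR of 0.00161. The vst scale compresses low genes, and edgeR on the counts gave -2.19 (FDR = 0.000481). In counts, Fos had 19 to 297 reads in E07 mice (median 106.5) and 81 to 834 in HOCl mice (median 410.5).

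Dusp1 ranged from 8.86 to 10.4 (median 9.44) in E07 mice and from 9.14 to 11.8 (median 10.6) in HOCl mice. Again all 12 E07 mice lay below the HOCl median, whereas the ranges overlapped. Its difference was -1.09 ± 0.25 (SE) on the vst scale, 2.13-fold, with an FDR of 0.00401 by limma.

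Jund, the Jun family member that is present without stimulation in most cells, ranged from 10.7 to 11.5 (median 11.0) in E07 mice and from 10.8 to 11.9 (median 11.4) in HOCl mice. Of the E07 mice, 11 of 12 lay below the HOCl median. The difference was smaller than that of Fos and Dusp1, at -0.45 ± 0.11 (SE), 1.36-fold, with an FDR of 0.00805.

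The other members did not pass both thresholds. Fosl2, a Fos family partner with slower kinetics, was -0.36 ± 0.12 (SE) with an FDR of 0.0398, but its fold-change of 1.29 was below 1.3. Junb, which also forms AP-1, differed by -0.31 ± 0.15 (SE) with an FDR of 0.165, and Jun by -0.17 ± 0.11 with an FDR of 0.302. Egr1, a zinc finger factor induced through serum response factor, differed by -0.24 ± 0.10 (FDR = 0.101). Klf6, a Krüppel-like factor, differed by -0.23 ± 0.09 (FDR = 0.0853), although all 12 E07 mice lay below the HOCl median. Ier2, a short nuclear protein induced with Fos, differed by -0.09 ± 0.10 (FDR = 0.617), and 4 of 12 E07 mice lay below the HOCl median.

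Fosb was counted at 0 in 18 of 71 mice and reached 10 counts in 13. It ranged from 0 to 9 counts (median 7) in E07 mice and from 0 to 46 (median 2.5) in HOCl mice, so that 0 of 12 E07 mice and 3 of 12 HOCl mice reached 10 counts. A count of 0 allows up to 3 counts, which is 0.188 to 0.251 CPM at these depths, and this limit covers counting error only. Fosb did not pass the count filter in any comparison. Without the filter edgeR gave -1.83 between E07 and HOCl mice (p = 0.0572, FDR = 0.227).

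**Figure D2:**
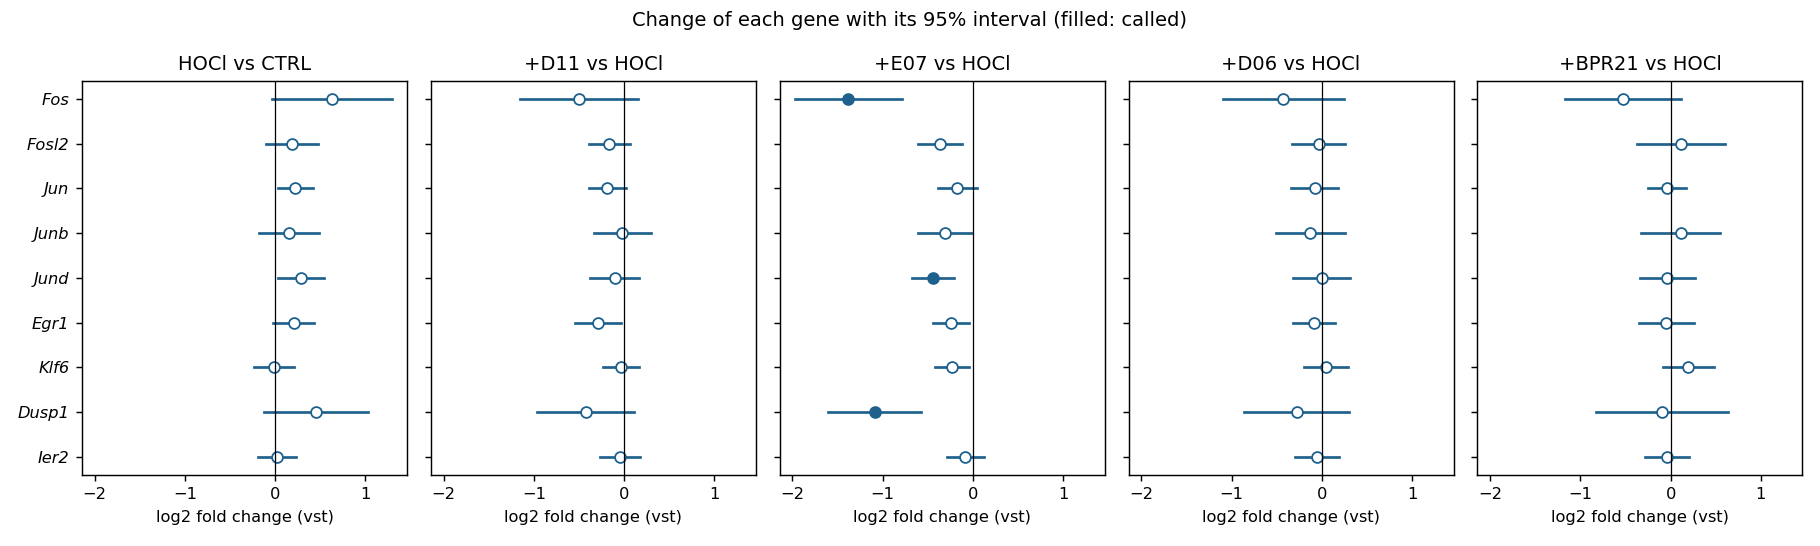
Log2 fold changes of the 9 members on the vst scale (x axis) with 95% intervals from limma, 1 panel per comparison; filled points were called. Filled points occur in the E07 panel only, at -1.38 for Fos, -1.09 for Dusp1 and -0.45 for Jund.

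How the libraries were scaled changed the sign of several of these differences. When each library was scaled to its total count, the median of all genes moved by 0.49 between E07 and HOCl mice and by -0.47 between HOCl and CTRL mice, against 0.02 and -0.02 on the vst scale. Fos was also lower in E07 mice, at -1.49 (FDR = 0.00139 by limma on log2(CPM + 1)), and Dusp1 at -0.71 (FDR = 0.0162). Jund turned to 0.03 (FDR = 0.811), whereas Ier2 was called higher at 0.40 (FDR = 0.015). These 3 of 9 members stand beside 65.5% of all genes called under this scaling. Relative to the median shift of all genes, Fos was at -1.99, Dusp1 at -1.21, Jund at -0.46 and Ier2 at -0.09. Between HOCl and CTRL mice, total-count scaling called Klf6 at -0.50 (FDR = 0.0264) and Ier2 at -0.45 (FDR = 0.0322), both lower, which relative to the shift were at -0.03 and 0.02. These 2 of 9 members stand beside 52% of all genes.

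Scaled to the 5 general leukocyte markers, a choice made after seeing the data, 5 of 9 members were called lower in E07 mice, beside 14.1% of all genes called in either direction. Fos was at -2.27 (FDR = 0.00268 by limma), Dusp1 at -1.37 (FDR = 0.00344) and Jund at -0.61 (FDR = 0.00198). Fosl2 at -0.66 (FDR = 0.0154) and Klf6 at -0.39 (FDR = 0.0155) joined them, while Ier2 at -0.24 (FDR = 0.165) did not. The median of all genes moved by -0.10 under this scaling, and these values are not relative to that shift.

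**Figure D3:**
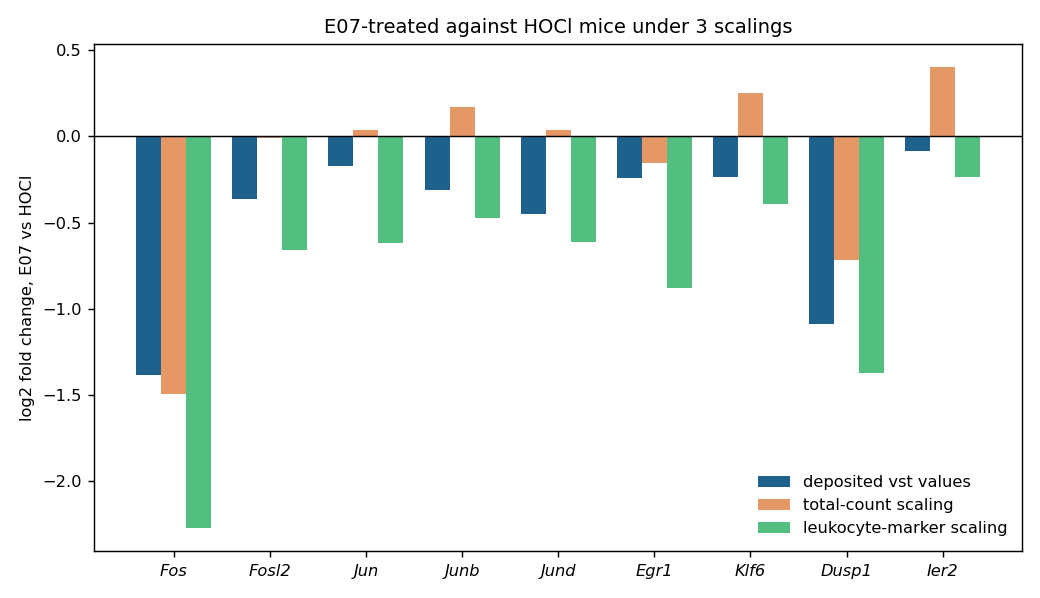
Log2 fold change between E07 and HOCl mice (y axis) of each member (x axis) under the deposited vst values, total-count scaling and leukocyte-marker scaling. Fos (-1.38, -1.49, -2.27) and Dusp1 (-1.09, -0.71, -1.37) keep their sign under all 3, whereas Jund (0.03) and Ier2 (0.40) are above 0 under total-count scaling.

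Markers of other blood cells moved in the same comparison. Of 14 red cell precursor markers, 12 were lower in E07 than in HOCl mice, with a median of -1.17, beside 7.01% of all genes called lower and 0.876% called higher. Their sum ranged from 35400 to 68627 CPM in E07 mice and from 60024 to 128740 CPM in HOCl mice. Platelet markers were lower for 9 of 11, neutrophil markers for 3 of 12 (median -0.46) and monocyte markers for 2 of 12, and B cell markers were higher for 8 of 11. Eosinophil markers were higher for 2 of 5. Of the T cell, NK cell and 5 general leukocyte markers, 0 were called by limma. With total-count scaling the median of the red cell precursor list was -0.90, that of the neutrophil list -0.13 and that of the platelet list -0.02, while the monocyte median turned from -0.17 to 0.29. In HOCl against CTRL mice, 11 of 14 red cell precursor markers, 5 of 11 platelet markers and 3 of 12 neutrophil markers were higher. The part of these cells in the differences of the members was not tested.

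With D11 mAb, 0 of 9 members were called by limma, beside 0.0571% of all genes. Egr1 alone had an unadjusted p under 0.05 by limma, at -0.29 (FDR = 0.301), beside 1483 of all 10508 genes, while edgeR gave no member. Fos ranged from 7.48 to 10.3 (median 8.49) in D11 mice and differed from HOCl mice by -0.50, with a 95% interval of -1.15 to 0.16. Dusp1 differed by -0.42, with an interval of -0.96 to 0.11. All 9 members had a negative log2 difference, with a median of -0.17, against 6 of 9 under total-count scaling.

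In D06 mice 0 of 9 members were called, beside 0.133% of all genes, and in BPR21 mice 0 of 9, beside 0.638%. In both, with all mice, 0 had an unadjusted p under 0.05 by limma and by edgeR. By limma, 1338 of all 10508 genes did so in D06 and 1474 in BPR21 mice. Fos was at -0.43 (95% interval -1.10 to 0.24) in D06 and at -0.53 (-1.17 to 0.11) in BPR21 mice relative to HOCl mice. Dusp1 was at -0.28 (-0.86 to 0.31) and -0.10 (-0.82 to 0.63). A single BPR21 mouse, number 11, moved these values. Without it, a choice made after seeing the data, 0 of 9 were again called, beside 0.828% of all genes. Fos was then at -0.68 (-1.27 to -0.08, unadjusted p = 0.0283, FDR = 0.281 by limma) and Dusp1 at -0.33 (-0.93 to 0.27).

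Over all 6 groups, the limma F test passed an FDR of 0.05 for 2 of 9 members, beside 18.3% of all genes. These were Fos (FDR = 0.00788) and Dusp1 (FDR = 0.0298), and the same 2 passed without BPR21 mouse 11. Under total-count scaling Fos (FDR = 0.00895), Klf6 (FDR = 0.0274) and Ier2 (FDR = 0.00921) passed the limma F test, beside 74.9% of all genes, and Dusp1 did not (FDR = 0.131). In ascending order, mean Fos was E07 (7.68 ± 0.51 SD), CTRL (8.43 ± 0.69), BPR21 (8.54 ± 0.63), D11 (8.57 ± 0.71), D06 (8.64 ± 0.78) and HOCl (9.07 ± 1.01). Mean Dusp1 followed the order E07 (9.51 ± 0.46), CTRL (10.2 ± 0.59), D11 (10.2 ± 0.52), D06 (10.3 ± 0.68), BPR21 (10.5 ± 1.01) and HOCl (10.6 ± 0.87). In the fit of all groups, no 2 neighbours in either order were called. Without mouse 11 the BPR21 means were 8.39 ± 0.38 for Fos, below that of CTRL mice, and 10.3 ± 0.64 for Dusp1 (n = 11). E07 and CTRL mice, the lowest pair, differed by -0.75 for Fos (unadjusted p = 0.0122) and by -0.64 for Dusp1 (unadjusted p = 0.0274), with 0 of 9 members called beside 0% of all genes.

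The D11, E07, D06 and BPR21 groups were then set against each other in the same fit. D06 mice exceeded E07 mice for 3 of 9 members, beside 9.67% of all genes called in either direction. BPR21 mice exceeded them for 4 of 9, beside 6.68% called in either direction. Fos was higher by 0.96 ± 0.29 (SE) in D06 (FDR = 0.0144) and by 0.85 ± 0.29 in BPR21 mice (FDR = 0.0427). The BPR21 calls rested on mouse 11. Without it 0 of 9 members were called, beside 3.58% of all genes, with Fos at 0.71 (FDR = 0.118), Dusp1 at 0.76 (FDR = 0.0628), Jund at 0.37 (FDR = 0.113) and Klf6 at 0.34 (FDR = 0.0355, under the fold-change threshold) by limma. Leaving out BPR21 mouse 6, 9 or 12, or E07 mouse 1, 2, 4, 5, 7, 8, 9, 10 or 11, left 2 called, Klf6 and Dusp1. In D06 mice, Fos was called whichever mouse of the 2 groups was left out. Jund was not called without D06 mouse 5, and Dusp1 was lost on leaving out any of several single mice. Under total-count scaling 2 of 9 were called for D06, beside 72.3% of all genes, and 1 of 9 for BPR21, beside 41.8%. Between E07 and D11 mice 0 of 9 were called, beside 0% of all genes, with Fos at -0.88 (FDR = 0.0931). An unadjusted p under 0.05 was seen for 3 members, and the share of all genes at that p was not counted. A limma fit of the E07 and D11 groups alone, added after seeing the data, called Fos and Dusp1, beside 4.57% of all genes, so this difference depended on which groups shared the estimate of the spread.

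Among 41 other immediate early and primary response genes in the vst table, 4 were lower in E07 than in HOCl mice and 0 higher, beside 737 lower and 92 higher of all 10508 genes, with a list median of -0.09 against 0.02 for all genes (0.37 against 0.49 under total-count scaling). Ppp1r15a (GADD34), which directs a phosphatase to eIF2α, was at -1.14, and Pim1, a survival kinase, at -0.76. Gadd45a, a growth arrest gene, was at -0.66 and Sik1, a salt-inducible kinase, at -0.56, and these 4 kept a negative sign under total-count scaling. Pim1 at 0.59 and Ppp1r15a at 1.03 were also the 2 called higher in HOCl than in CTRL mice, beside 4.79% of all genes called higher. Nr4a1, an orphan nuclear receptor, was the 1 gene called in BPR21 mice, at -0.55, beside the 0.638% of all genes, and 0 were called in D11 or D06 mice. The 2 with the smallest p were Sik1 (-0.39) and Nr4a1 (-0.30) in D11 mice, and Klf4 (-0.60) and Nr4a1 (-0.46) in D06 mice. In BPR21 mice Klf4 was at -0.41 and did not pass.

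Of 32 signalling genes that act upstream of immediate early genes, 4 were lower in E07 than in HOCl mice and the same 4 were higher in HOCl than in CTRL mice, beside 7.01% of all genes called lower in the first comparison and 4.79% called higher in the second. The MAP kinase kinases Map2k3 and Map2k2 were at -0.58 and -0.62, the cAMP-responsive modulator Crem at -0.56 and Mapk3 (ERK1) at -0.38 with E07. Under total-count scaling, where the median of all genes moved by 0.49, they were at -0.11, -0.15, -0.39 and 0.11 in that order. With HOCl against CTRL they were at 0.53, 0.62, 0.50 and 0.39 on the vst scale, the HOCl mice being shared by both comparisons. Total-count scaling, with the median of all genes at -0.47, gave 0.09, 0.17, 0.31 and -0.07 in the same order. The list median was 0.01 in E07 against HOCl mice. None of the 32 was called with D11, D06 or BPR21, the smallest p being for Mapk8 (0.25) and Braf (-0.22) with D11, Rps6ka1 (-0.18) and Mapkapk2 (-0.15) with D06, and Rps6ka1 (-0.30) and Map2k1 (-0.25) with BPR21.

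Within groups, the members varied together from mouse to mouse. After subtracting each group's mean, Pearson's r over 70 mice was positive for all 36 pairs of the 9 members, and over 0.5 for 12. By a two-sided permutation within groups, adjusted over the 36 pairs, 26 pairs passed 0.05. Pairs of other genes were not counted in this way, so these values do not show that varying together is particular to the members. Junb and Dusp1 had r = 0.86 (rho = 0.78), and Fos and Dusp1 r = 0.81 (rho = 0.81), each with a permutation p of 1e-05, the smallest that the resamples can give, and an adjusted p of 3e-05. The r of Fos and Dusp1 lay between 0.74 and 0.90 in the 6 groups. Without the 2 mice farthest from the median of Fos, it was 0.81. The r to the other members was low for Jun (0.11 to 0.33), Egr1 (0.235 to 0.36) and Jund (0.16 to 0.43). Jun and Egr1 had few reads, with medians of 46 and 37 over the 71 mice. The part of counting error in their r was not tested.

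**Figure D4:**
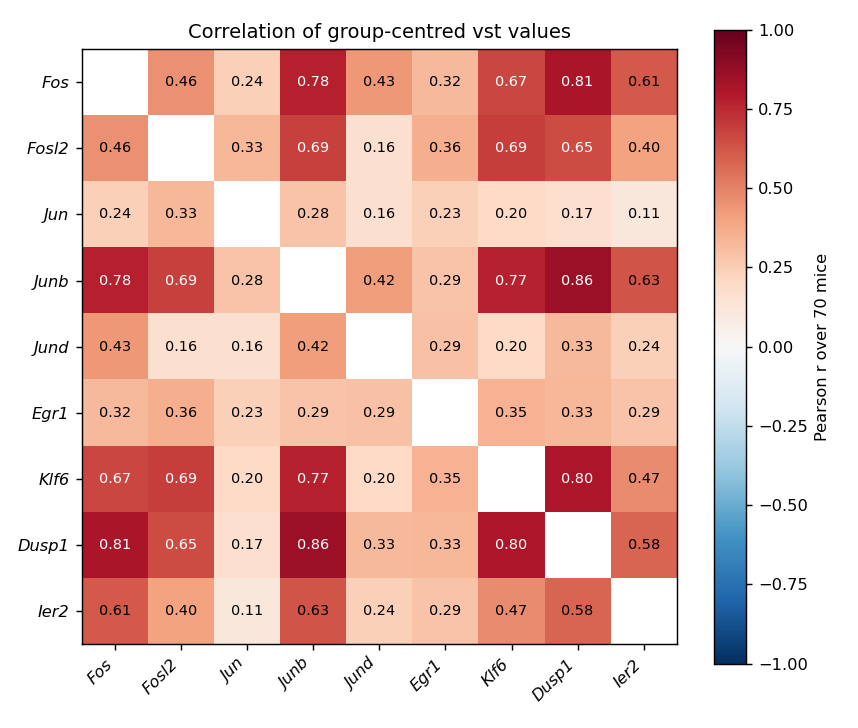
Pearson's r of group-centred vst values over 70 mice, for each pair of members on the x and y axes, with the value printed in each cell. Fos, Junb, Klf6 and Dusp1 form the block of high values (0.67 to 0.86), and the row of Jun is pale (0.11 to 0.33).

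A single mouse stood apart. BPR21 mouse 11 had the highest value of all mice for Fosl2, Junb, Egr1, Klf6, Dusp1 and Ier2, with Dusp1 at 13.1 on the vst scale against 12.1 in the next mouse. Its neutrophil markers summed to 14650 CPM, the second highest of the 71 mice, and its B cell markers to 505 CPM, the second lowest. Without this mouse 16 of 36 pairs passed, and r was 0.81 for Junb and Dusp1 and 0.80 for Fos and Dusp1. Egr1 and Fosl2 had r = 0.36 with this mouse and 0.07 without it.

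Members were related to the marker lists of different cells. Over 81 relations of 9 members and 9 marker lists, 22 passed an adjusted permutation p of 0.05. The share of all genes related to these lists was not counted, and the relations were not recounted without BPR21 mouse 11. Neutrophil markers were related to 6 of 9 members, most to Junb (r = 0.71, rho = 0.53, adjusted p = 0.000162) and Fosl2 (r = 0.69, rho = 0.61, adjusted p = 0.000162). For Dusp1 r was 0.61 and for Fos 0.48. Without the 2 mice farthest from the median of the marker score, r was 0.59 for Junb, 0.54 for Fosl2, 0.44 for Dusp1 and 0.42 for Fos. Red cell precursor markers were related to 3 of 9 members, to Jund (r = 0.77, rho = 0.75, adjusted permutation p = 0.000162), Fos (r = 0.46, rho = 0.47, adjusted permutation p = 0.00153) and Junb (r = 0.34, rho = 0.35, adjusted permutation p = 0.0328). Jund had r = 0.05 to neutrophil markers. B cell markers were related negatively to 6 of 9 members, at r = -0.55 for Fosl2 and -0.47 for Dusp1. Both were at -0.37 without the 2 mice farthest from the median of that score. T cell markers were related negatively to 4. Eosinophil, platelet and general leukocyte markers were each related to 1 member, and monocyte and NK cell markers to 0. Cell shares and member levels come from the same libraries, and what links them was not tested.

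The genes most like the members' mean over the 70 mice, as a description, were Mxd1 (r = 0.80), a partner of Max, and Cebpb (r = 0.79), a myeloid transcription factor. Cd14 (0.77), Clec4e (0.75), Arrdc3 (0.74), Slfn4 (0.74), Picalm (0.72), Zfp36l2 (0.71), Il1b (0.70) and Trem1 (0.70) followed. Cxcr4 (0.71), Tsc22d3 (0.69) and Gadd45a (0.66) were most like Fos, and Atg4c (0.48), Flcn (0.46) and Mnt (0.46) most like Jun. Without BPR21 mouse 11, Mxd1 was at 0.70 and Cebpb at 0.70, while Cxcr4 was at 0.69 with Fos.

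Some gene models overlap others, and the strand setting of the counting is not given in the sources used here. Junb overlaps Prdx2, a peroxiredoxin abundant in red cells, on the opposite strand, and the 2 had r = 0.39 (permutation p = 0.00215, rho = 0.39). Dusp1 overlaps Ergic1 on the opposite strand (r = 0.36, permutation p = 0.0077, rho = 0.17). Its model also overlaps Gm50274 and Gm50275 on the same strand and other models on the opposite strand. The part of these overlaps in the Dusp1 counts was not tested. Jun overlaps Junos, and Fosl2 and Jund overlap other antisense models, whereas Fos, Fosb, Egr1, Klf6 and Ier2 overlap no annotated gene.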

How the data were processed

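Per the labels and the methods, RNA from whole blood was sequenced as strand-specific libraries after poly A selection and globin depletion. The authors trimmed reads with Cutadapt, aligned them to mm39 with STAR, counted reads per gene with FeatureCount and deposited these counts. They also deposited vst values of DESeq2, on a log2 scale, after removing non-coding and low genes; columns without a sample numbered 0. The values were compared across all genes with limma 3.58.1 in R 4.3.3 (FDR of at most 0.05 by Benjamini-Hochberg, fold-change of at least 1.3, fits of 2 groups), and counts with edgeR 4.0.16 (TMM, genes with at least 10 counts in at least 11 mice) and DESeq2 1.42.0. CPM values took a pseudocount of 1 before log2. Correlations used 100000 resamples within groups, in Python 3.11.15 with numpy 2.4.6 and scipy 1.17.1. The tests were tested on simulated data. Mice are separate animals. Each member was reported in every comparison. From the 2 other lists, genes called and the 2 with the smallest p were named, and for likeness the 10 genes closest to the members' mean and 3 closest to Fos and Jun. Members, lists and tests were chosen with earlier results of these data known. RefSeq promoter tables of another build were not used here.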

Additional observations from a re-analysis of the deposited data

Results flagged for a closer look

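Differences of the D06 and BPR21 groups from the E07 group were singled out because they passed the thresholds by limma. That test of the difference was made in 1 fit of the 6 groups, so its FDR values are no further check. D06 mice exceeded E07 mice by 0.96 for Fos (FDR = 0.0144), 0.45 for Jund (FDR = 0.023) and 0.81 for Dusp1 (FDR = 0.0363) on the vst scale. Without D06 mouse 5 Jund was not called. Dusp1 was not called without D06 mouse 1, 2, 3 or 10, or without E07 mouse 2, 3, 9 or 10. BPR21 mice exceeded E07 mice by 0.85 for Fos (FDR = 0.0427), 0.41 for Jund (FDR = 0.0499), 0.43 for Klf6 (FDR = 0.00861) and 0.99 for Dusp1 (FDR = 0.0167). The E07 mice are the same in both comparisons. Without BPR21 mouse 11, 0 of these 4 BPR21 calls passed both thresholds. With total-count scaling, D06 mice were higher than E07 mice for Fos at 0.90 (FDR = 0.0221) but lower for Ier2 at -0.55 (FDR = 0.0049). Jund turned to -0.13 (FDR = 0.281 by limma) and Dusp1 was at 0.34 (FDR = 0.29), neither of them called. Fos alone was called for BPR21, and the median of all genes moved by -0.59 for D06 and -0.41 for BPR21. The part of the scaling and of blood cell composition in these differences was not tested.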

How the results depend on the processing

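Between E07 and HOCl mice, 3 members were called with edgeR, DESeq2, other count filters, 6 groups in 1 fit, and trend and robust variances, and 3 to 4 when each mouse was left out in turn. Beside them, edgeR called 9.83% of the genes it tested, and the fit of 6 groups called 6.48% of all genes. That share was not counted for DESeq2, the other filters, trend and robust variances, these left-out mice or centring on the median. Fos, Jund and Dusp1 were called each time a mouse was left out. Total-count scaling also called 3 but turned Jund to 0.035 and called Ier2 at 0.40. Leukocyte-marker scaling called 5. Total-count scaling called 2 members between HOCl and CTRL mice (Ier2 turned to -0.45), and centring on the median called 4 in the F test. Leaving out each mouse gave 0 in the other 4 comparisons with HOCl or CTRL mice, 2 to 3 between D06 and E07 mice, and 0 to 5 between BPR21 and E07 mice, where 0 came from leaving out BPR21 mouse 11. The correlation count was 26, 28 with total-count scaling, 22 without the 2 farthest mice and 16 without BPR21 mouse 11. Among 495 member changes under alternatives, 36 that were uncalled had another sign. The cause of these changes was not tested. The mean correlation of same-numbered mice was 0.01 to 0.06, against -0.0055 to 0.0004 for other numbers, and 1 pair reached 0.61. Whether mouse numbers pair the samples cannot be told from these values. The replicate block called 4 members between E07 and HOCl mice, adding Fosl2, beside 799 of all 10508 genes. It called 0 members between HOCl and CTRL mice, beside 85 genes, and 0 in the other comparisons with HOCl mice. In the F test it called 3, and the share of all genes there was not counted. Low counts limit Fosb, and Jun and Egr1 also had few reads.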
